A study of Mus musculus with 6 samples.

Results

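The genes described here are 10 genes of the endoplasmic reticulum (ER) protein folding system, read in hematopoietic stem cells (HSCs) of mouse bone marrow (BM) by RNA-seq. They were chosen by symbol: the stress sensors Ern1 and Atf6, the transcription factor Xbp1, the chaperones Hspa5, Hsp90b1, Calr and Canx, and the disulfide isomerases Pdia3, Pdia4 and Pdia6. All 10 were found among the 21878 gene rows of each library, and all 10 passed the filter of at least 1 FPKM in at least 3 libraries that left 10449 genes for testing. FPKM is fragments per kilobase of transcript, scaled to the size of the library, so levels of different genes can be set side by side. Each of the 2 groups had 3 libraries. Control libraries came from WT mice that received vehicle, and IGF1 libraries came from WT mice that received 1 subcutaneous dose of recombinant mouse IGF1 (IGF-1 in the labels) and were sampled 1 day later. In both groups HSCs were sorted as CD34-Flk2-Lineage-Sca1+c-Kit+ BM cells. The extraction label speaks of IR instead of IGF-1, which conflicts with the treatment label, and the treatment label was followed. No source used here gives the age of the mice or says whether the 3 libraries of a group came from separate mice, so p-values measure only the spread between these libraries. The comparison asks how the HSC transcriptome differs between mice with and without IGF1, here for the machinery that folds secreted and membrane proteins.

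The ER folds proteins that are bound for the membrane or for secretion. Hspa5 encodes BiP, the ER Hsp70 chaperone, and in unstressed cells BiP is bound to the lumenal parts of the stress sensors. When unfolded proteins build up, the sensor IRE1 (Ern1) splices Xbp1 mRNA into the form that encodes an active transcription factor, and ATF6 is cut in the Golgi to release another. Both factors raise transcription of ER chaperones, and another sensor, PERK (Eif2ak3), slows translation and favours synthesis of ATF4. The values below are summed over all transcripts of a gene, so spliced and unspliced Xbp1 mRNA cannot be told apart.

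Many ER chaperone genes carry an ER stress response element (ERSE) just before their transcript start, made of CCAAT and CCACG with 9 bases between them, in which CCAAT is read by NF-Y and CCACG by ATF6 and XBP1. RefSeq promoters (GRCm38.p6) were at hand for 9 of the 10 genes, all but Atf6, and the 250 bases before the start were searched on both strands. The ERSE was present in 5 of these 9, namely Hspa5, Hsp90b1, Calr, Canx and Pdia6, against 37 of 32851 promoters in all (0.113%). The sites are shown because they mark which of these genes share the element. They are written 5′ to 3′ on the strand of the gene, with the matched letters in capitals and the 9 bases between them in lower case, and the sites that begin with CGTGG lie in reverse.
Hspa5, 65 to 47 bases before the start: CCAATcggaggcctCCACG
Pdia6, 98 to 80 bases before the start: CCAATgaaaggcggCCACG
Hsp90b1, 107 to 89 bases before the start: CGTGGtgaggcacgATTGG
Hsp90b1, 212 to 194 bases before the start: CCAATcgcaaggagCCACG
Canx, 145 to 127 bases before the start: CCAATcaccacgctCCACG
Calr, 162 to 144 bases before the start: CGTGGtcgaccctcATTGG

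Pdia3, Pdia4, Xbp1 and Ern1 held no match to these letters in this window. The other 2 elements searched on both strands, ERSE-II (ATTGG and CCACG with 1 base between them, in 0.0304% of all promoters) and the core of the unfolded protein response element (TGACGTGG, in 0.563%), were in 0 of the 9. The short letters are common, since CCAAT was in 33.8% of all promoters and in 7 of the 9, and CCACG was in 28.3% and in 6 of the 9. Both short patterns also count matches that lie inside an ERSE. The full windows of 3 genes are given to set promoters with the ERSE (Hspa5 and Canx) beside that of Pdia3, which had the lowest fold change of the 10 genes and holds 2 CCAAT matches without an ERSE. Capitals again mark the ERSE letters.
Hspa5 (chr2:34771840-34772089, strand +): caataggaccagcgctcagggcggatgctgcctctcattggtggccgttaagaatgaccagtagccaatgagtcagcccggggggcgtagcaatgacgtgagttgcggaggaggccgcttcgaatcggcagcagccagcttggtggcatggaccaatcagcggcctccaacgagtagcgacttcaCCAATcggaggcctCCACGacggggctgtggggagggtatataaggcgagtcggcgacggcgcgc
Canx (chr11:50325674-50325923, strand -): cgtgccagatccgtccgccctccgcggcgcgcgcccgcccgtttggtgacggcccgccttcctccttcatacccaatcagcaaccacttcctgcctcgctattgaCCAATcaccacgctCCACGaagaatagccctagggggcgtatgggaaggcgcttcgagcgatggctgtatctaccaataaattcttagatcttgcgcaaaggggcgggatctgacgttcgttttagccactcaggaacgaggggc
Pdia3 (chr2:121413652-121413901, strand +): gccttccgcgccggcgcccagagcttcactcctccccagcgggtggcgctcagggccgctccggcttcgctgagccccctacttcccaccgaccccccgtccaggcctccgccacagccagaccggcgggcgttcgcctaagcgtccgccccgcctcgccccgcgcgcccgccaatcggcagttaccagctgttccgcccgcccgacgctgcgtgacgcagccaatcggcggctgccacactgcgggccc

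**Figure D1:**
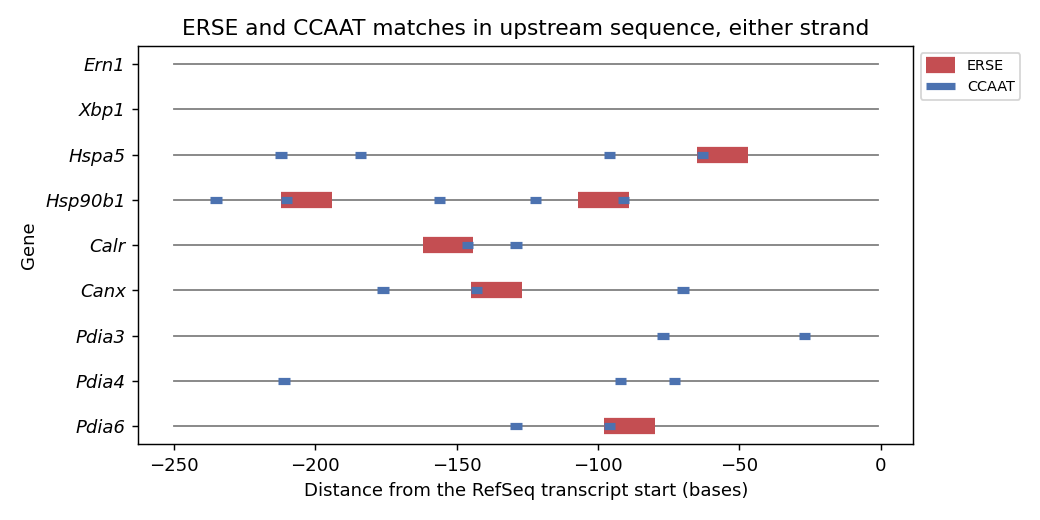
Position of ERSE (red) and CCAAT (blue) matches on either strand, in bases before the RefSeq transcript start, for the 9 genes with a promoter sequence. Hsp90b1 shows 2 ERSE matches, Hspa5, Calr, Canx and Pdia6 show 1 each, and Ern1 and Xbp1 show neither pattern.

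The libraries held 11206800 to 15973834 reads, as recovered from the steps of the FPKM values. Control replicate 2 stood apart from the other 2 control libraries, and whether its label is right was not tested. Every control mean, fold change and standard error over all 6 libraries rests on that label. On a log2(FPKM + 1) scale 2573 and 2587 genes differed over 2-fold between it and control replicates 1 and 3, while 105 to 125 genes did so between it and the IGF1 libraries and 1 gene did so between control replicates 1 and 3. Results are therefore given with and without it. The chi-squared per gene between 2 libraries is about 1 where they differ by read sampling alone. It was 1.52 between control replicates 1 and 3 and 1.69 to 1.89 among the IGF1 libraries. Small adjusted p-values without control replicate 2 rest on this narrow spread, and whether it is the spread between mice is not known. The sort also left transcripts of its negative markers in every library. Cd34 was at 640, 265 and 634 FPKM in control replicates 1, 2 and 3 and at 230.2 to 238 in the IGF1 libraries, and Flt3, which encodes Flk2, was at 117, 172 and 117 FPKM and at 183 to 188. The stem cell genes Procr (11.5 to 18.7 FPKM) and Hlf (8.88 to 11.8 FPKM) were present in all 6 libraries, while Kit was at 105, 31.4 and 105 FPKM in the controls and at 24.2 to 24.6 in the IGF1 libraries. Plasma cells carry very high levels of ER chaperones, and the summed level of a list of 6 plasma cell genes was 89.6, 134 and 88.2 FPKM in the controls and 91.6 to 96.8 in the IGF1 libraries, with Prdm1 and Tnfrsf17 under 1 FPKM throughout. Within this list Jchain was at 73.1, 96.9 and 71.9 FPKM against 56.6 to 61.6, while Mzb1, an ER co-chaperone, was at 4.92, 26.3 and 4.12 FPKM against 21.3 to 24.0. The sum of 7 B cell genes was 121, 495 and 120.1 FPKM against 472 to 491. The sum of 9 neutrophil and monocyte genes was 3063, 4271 and 3098 FPKM against 4111 to 4123, and its members moved in opposite directions. Ctsg (387, 1467 and 383 FPKM against 1338 to 1359) and Elane (92.8, 576 and 92.5 FPKM against 692 to 709) had higher values with IGF1 than in control replicates 1 and 3. Lower values with IGF1 than in every control were seen for Ngp (79.0, 11.5 and 78.2 FPKM against 2.22 to 3.73), Ltf (13.2, 0.442 and 13.6 FPKM against 0.0966 to 0.235), S100a8 (284, 163 and 285 FPKM against 55.0 to 72.8), S100a9 and Camp. That of 4 T and NK cell genes was 368, 777 and 357 FPKM against 768 to 787, nearly all of it Nkg7 (356 to 787 FPKM), and Cd3e did not exceed 0.206 FPKM in any library. The 6 erythroid genes summed to 31.9, 97.6 and 34.7 FPKM against 45.0 to 50.8, and the 5 megakaryocyte genes to 52.5, 74.5 and 51.8 FPKM against 93.1 to 103.7. Megakaryocyte genes differed in direction. Pf4 was at 15.6, 48.6 and 15.1 FPKM against 63.05 to 73.7. Itga2b, at 32.2, 16.8 and 32.3 FPKM against 17.9 to 19.3, had lower values with IGF1 than in control replicates 1 and 3. The part of these cell type markers in the results below was not tested, and in bulk RNA fewer cells of a type and less RNA per cell cannot be told apart.

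All 10 genes had lower fitted levels in the IGF1 group, as did 59.6% of all genes tested. For Hsp90b1 this direction turned under other processing (given with its values below). Among the 10 genes 2, Canx and Pdia3, passed the threshold of a fold change over 2 and an adjusted p under 0.05 in limma with Benjamini-Hochberg adjustment. Canx, the membrane chaperone calnexin, was 2.27-fold lower, and Pdia3, the isomerase that works with calnexin and calreticulin, was 3.33-fold lower. These folds and all log2 fold changes below are on the log2(FPKM + 1) scale. Over all 10449 genes, 4.63% were called lower and 1.98% higher, while 0 of the 10 genes were called higher, also by voom on the recovered reads (5.77% of all genes called higher) or at an unadjusted p under 0.05 (19.0% of all genes higher and 34.4% lower at that p, which 7 of the 10 genes passed with lower values). One more gene, Pdia6, passed the adjusted p alone, as did 14.1% of all genes in that direction. In 8 of the 10 genes each IGF1 library was below each control library, which held for 37.4% of all genes. The median log2 fold change was -0.78 for the 10 genes and -0.18 for all genes tested. Both medians moved with the scaling of the libraries, to -0.59 and -0.02 with TMM scaling and to -0.52 and 0.04 with 75th percentile scaling, so each gene is best read against the median of all genes. With control replicate 2 left out, 5 of the 10 genes were called lower (Hspa5, Xbp1, Canx, Pdia3 and Pdia4), against 20.6% of all genes, and all 10 passed the adjusted p with lower values, against 53.6% of all genes. When any other single library was left out, 0 of the 10 were called, and 0 of all genes tested. At an unadjusted p under 0.05, 3 or 4 of the 10 were then lower, against 19.3% to 20.8% of all genes.

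**Figure D2:**
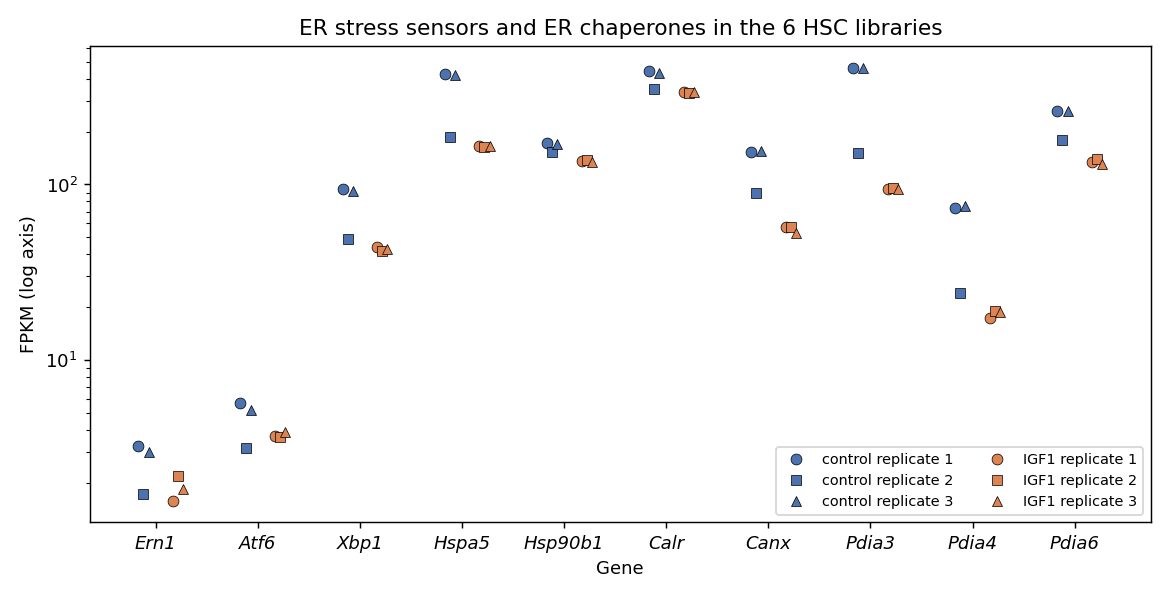
FPKM of the 10 genes in the 6 libraries on a log axis, with control libraries in blue and IGF1 libraries in orange and the marker shape giving the replicate number. Control replicate 2 (blue square) sits above the IGF1 libraries and below both other controls for 8 genes and below the IGF1 libraries for Atf6.

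The stress sensors were the least abundant of the 10 genes. Ern1 (chr11:106394650-106487852, strand -, GRCm38), which encodes the kinase and endoribonuclease IRE1, was at 3.25, 1.72 and 2.98 FPKM in control replicates 1, 2 and 3 and at 1.58, 2.18 and 1.85 FPKM in IGF1 replicates 1, 2 and 3. The groups overlapped, with control replicate 2 below 2 of the 3 IGF1 libraries. Between 78 and 207 reads lay behind each value. Its log2 fold change was -0.33 ± 0.20 (SE, n = 3 and 3), with an adjusted p of 0.208 in limma.

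Atf6 (chr1:170704674-170867771, strand -), the membrane-bound factor that is freed by cleavage, was at 5.71, 3.14 and 5.16 FPKM in the controls, against 3.67, 3.65 and 3.89 FPKM with IGF1. Control replicate 2 was the lowest library of the 6, and the other controls were above all IGF1 libraries. The log2 fold change was -0.23 ± 0.20 (SE, n = 3 and 3), close to the median of all genes, with an adjusted p of 0.364 in limma. Leaving out control replicate 2 gave log2 fold changes of -0.52 for Ern1 and -0.44 for Atf6 with adjusted p-values of 0.00055 and 0.0002, and neither reached 2-fold.

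Xbp1 (chr11:5520659-5525893, strand +), whose mRNA is the substrate of IRE1, was far more abundant than the sensors. It was at 93.8, 48.9 and 91.5 FPKM in the controls, against 44.3, 41.9 and 42.6 FPKM with IGF1. The groups did not overlap, and control replicate 2 was 0.18 above the IGF1 mean and 0.91 below the other controls on the log2 scale. The log2 fold change was -0.79 ± 0.26 (SE, n = 3 and 3) with an adjusted p of 0.0643 in limma, which did not pass. The same fit on 2 controls and 3 IGF1 libraries, without control replicate 2, gave -1.09 ± 0.04 (SE) with an adjusted p of 1.9e-09. An exact permutation test gave p = 0.1 for each of the 8 genes without overlap, the smallest 2-sided value that 3 against 3 libraries can give, and p = 0.3 for Ern1 and p = 0.4 for Atf6.

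Among the soluble chaperones, Hspa5 and Hsp90b1 moved by different amounts. Hspa5 (BiP; chr2:34771970-34777547, strand +) was at 423, 187 and 422 FPKM in the controls, against 166, 163 and 166 FPKM with IGF1. Control replicate 2 was close to the IGF1 libraries, at 13.5% of the log2 distance from their mean to that of the other controls. Its log2 fold change was -0.96 ± 0.33 (SE, n = 3 and 3) with an adjusted p of 0.0699 in limma. It was -1.35 ± 0.03 without control replicate 2 (SE, n = 2 and 3), with an adjusted p of 3.6e-11, a fold of 2.55.

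Hsp90b1 (chr10:86690209-86705509, strand -), the ER form of Hsp90 known as GRP94, was at 172, 154 and 171 FPKM in the controls, against 136, 139 and 134 FPKM with IGF1. All controls were above all IGF1 libraries, by a small margin. Its log2 fold change was -0.28 ± 0.10 (SE, n = 3 and 3) with an adjusted p of 0.078 in limma, and its direction depended on the processing. It was +0.28 once trends with transcript length and GC content were removed (adjusted p 0.13). It was, without control replicate 2, +0.02 with 75th percentile scaling (adjusted p 0.576) and +0.41 with the length and GC trends removed (adjusted p 6.2e-09). Hsp90b1 shares its locus with Gm15344 and Gm25745 on the same strand and with 1810014B01Rik on the other.

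Calr and Canx encode calreticulin and calnexin, the lectin chaperones that hold newly made glycoproteins. Calr (chr8:84841850-84846934, strand -) had the highest mean level of the 10 genes in both groups, at 444, 349 and 433 FPKM in the controls, against 335, 334 and 335 FPKM with IGF1. Control replicate 2 was near the IGF1 libraries but above them. The log2 fold change was -0.28 ± 0.15 (SE, n = 3 and 3) with an adjusted p of 0.153 in limma, and -0.39 without control replicate 2. For Calr the size depended on the scaling, at -0.89 with quantile normalization (adjusted p 0.077) and -0.03 with 75th percentile scaling (adjusted p 0.885). Without control replicate 2, Calr was called lower with quantile normalization (-1.27, adjusted p 2.2e-10) and was at -0.04 with 75th percentile scaling (adjusted p 0.15). Canx (chr11:50293961-50325673, strand -) was at 153, 89.2 and 154 FPKM in the controls, against 57.3, 57.4 and 53.0 FPKM with IGF1. Here control replicate 2 lay at 46.2% of the log2 distance from the IGF1 mean to the other controls. Canx fell by 1.19 ± 0.23 on the log2 scale (SE, n = 3 and 3; adjusted p = 0.0367 in limma), and without control replicate 2 the value was -1.44 with an adjusted p of 4.9e-10. Canx missed the fold of 2 but kept an adjusted p under 0.05 with TMM scaling (-0.998, adjusted p 0.035), 75th percentile scaling (-0.93, adjusted p 0.032), length and GC trends removed (-0.72, adjusted p 0.032) and voom (-0.98, adjusted p 0.037). Pdia3 kept the fold and missed the adjusted p with quantile normalization (-2.19, adjusted p 0.057) and without the filter on low values (-1.74, adjusted p 0.058). With values scaled to a common sum both missed the adjusted p, at 0.051 for Canx (-1.57) and 0.053 for Pdia3 (-2.13).

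The 3 disulfide isomerases, which form and rearrange disulfide bonds, held the 2 lowest fold changes of the 10 genes. Pdia3 (ERp57; chr2:121413775-121438687, strand +) was at 463, 152 and 459 FPKM in the controls, against 94.4, 95.7 and 94.6 FPKM with IGF1. The IGF1 libraries were almost level with each other, and control replicate 2 was above them and well below the other controls. The log2 fold change was -1.74 ± 0.44 (SE, n = 3 and 3; adjusted p = 0.047 in limma), and only 0.756% of all genes tested had a lower one. Leaving out that library gave -2.27 ± 0.03 (SE, n = 2 and 3), a fold of 4.82, with an adjusted p of 2.2e-12. By mean level Pdia3 ranked 250 among all tested genes in the controls, below Calr alone of the 10 genes, and 1064 in the IGF1 libraries, below Calr, Hspa5, Hsp90b1 and Pdia6.

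Pdia4 (ERp72; chr6:47796141-47813430, strand -) was at 73.8, 24.1 and 75.6 FPKM in the controls, against 17.3, 19.0 and 18.9 FPKM with IGF1. Control replicate 2 was much nearer to the IGF1 libraries than to the other controls, without overlap. The log2 fold change was -1.43 ± 0.44 (SE, n = 3 and 3) with an adjusted p of 0.0582 in limma, so that a 2.70-fold difference did not pass. The value was -1.96 without it, with an adjusted p of 2.2e-10. Pdia6 (P5; chr12:17266545-17284770, strand +) was at 261, 178 and 261 FPKM in the controls, against 135, 140.2 and 131 FPKM with IGF1. Its log2 fold change of -0.76 ± 0.18 (SE, n = 3 and 3) passed the adjusted p of limma (0.043) and not the fold of 2. Catsper2 lies on the other strand at Pdia3 and Atp6v1c2 at Pdia6. The kit marks strand, but how strand was used in counting is not given in the sources used here.

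**Figure D3:**
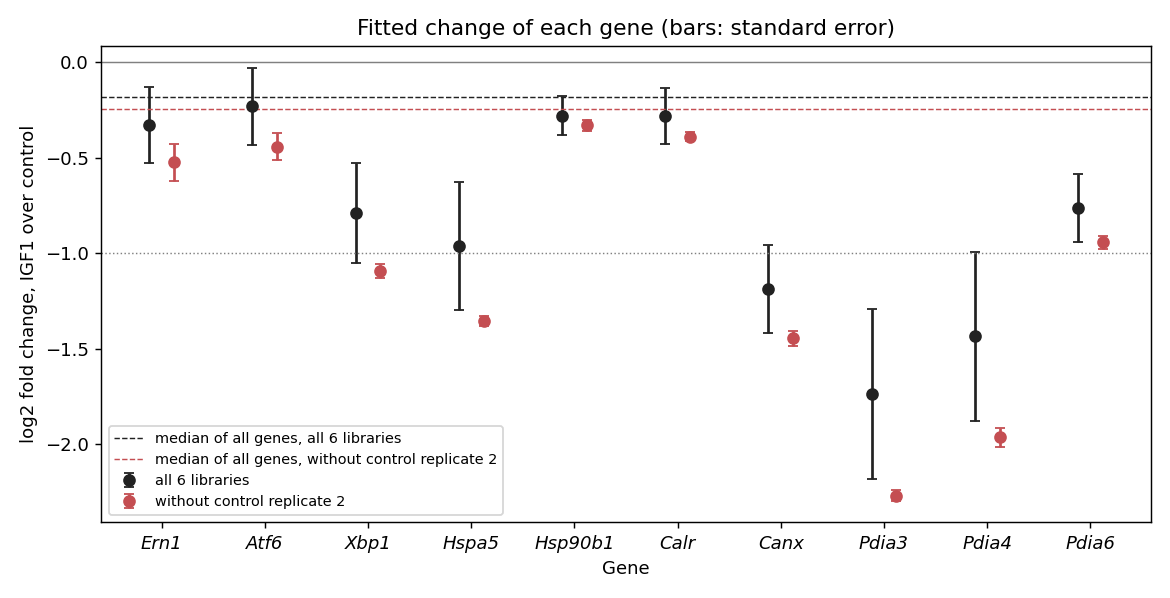
Log2 fold change of IGF1 over control for the 10 genes, with all 6 libraries (black) and without control replicate 2 (red). Bars are standard errors, dashed lines are the medians of all genes (-0.18 and -0.24) and the dotted line is a 2-fold decrease, which Canx, Pdia3 and Pdia4 passed in both fits and Hspa5 and Xbp1 passed in the fit without that library.

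Ratios of 2 genes within a library do not depend on how libraries are scaled to each other. The ratios below were chosen after the values were seen. Relative to the FPKM of Hsp90b1, that of Pdia3 stood at 2.69, 0.986 and 2.69 in the controls and at 0.694, 0.690 and 0.705 in the IGF1 libraries. So Pdia3 was above Hsp90b1 in control replicates 1 and 3 and below it in the IGF1 libraries and, narrowly, in control replicate 2. Pdia4 to Hsp90b1 was 0.428, 0.157 and 0.443 in the controls against 0.127, 0.137 and 0.141, and Pdia6 to Hsp90b1 was 1.51, 1.16 and 1.53 against 0.989, 1.01 and 0.978. Among the lectin chaperones, Canx to Calr was 0.345, 0.255 and 0.357 in the controls against 0.171, 0.172 and 0.158 in the IGF1 libraries. Each of these 4 ratios was lower in all 3 IGF1 libraries than in all 3 controls, which is a description, since the pairs were chosen for it. Hspa5 to Hsp90b1 overlapped, at 2.46, 1.22 and 2.47 against 1.22, 1.17 and 1.24, with control replicate 2 inside the IGF1 range.

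**Figure D4:**
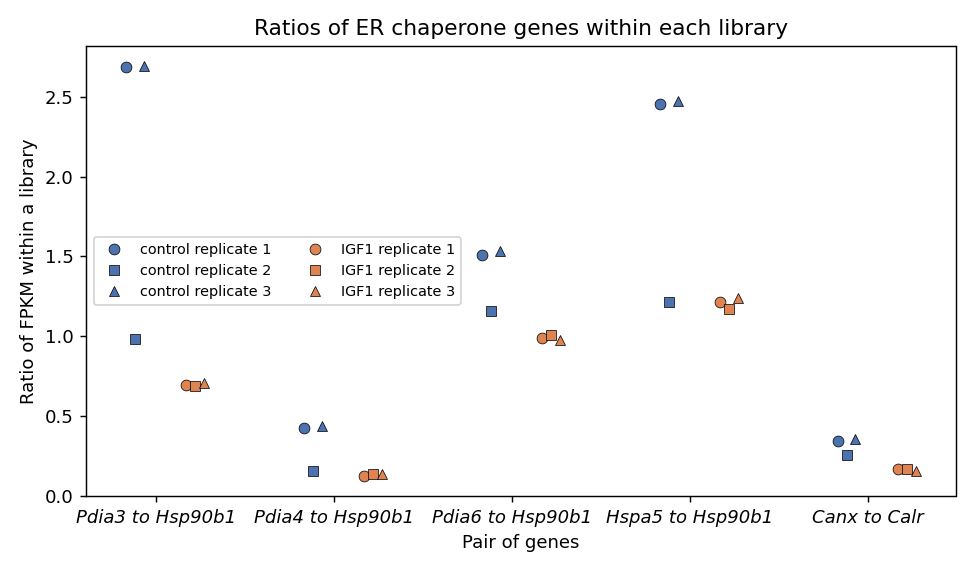
Ratio of the FPKM of 2 genes within each library for 5 pairs, with controls in blue and IGF1 libraries in orange. For Pdia3 to Hsp90b1 the IGF1 libraries sit between 0.690 and 0.705, below control replicate 2 at 0.986 and the other controls at 2.69, and for Hspa5 to Hsp90b1 control replicate 2 sits among the IGF1 libraries.

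In sum over the 10 genes, 0.552%, 0.305% and 0.548% of the reads of control replicates 1, 2 and 3 fell on them, and 0.249%, 0.251% and 0.247% of the reads of IGF1 replicates 1, 2 and 3. The summed level was 2093, 1188 and 2076 FPKM in the controls, against 990, 995 and 982 FPKM with IGF1, without overlap. Pdia3 alone went from 463 and 459 FPKM in control replicates 1 and 3 to 152 in control replicate 2 and 94.4 to 95.7 in the IGF1 libraries, the largest difference in FPKM among the 10.

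The rest of the ER machinery was read from lists of 103 further genes, of which 96 were tested. Of these, 4 were called lower and 0 higher, against 4.63% and 1.98% of all genes. With higher values, 2 of the 96 passed the fold and an unadjusted p under 0.05, against 666 of all 10449 genes. Voom called 1 of the 96 higher, against 5.77% of all genes. A log2 fold change below 0 was found for 61 of the 96, and the median was -0.28. Of all genes tested, 59.6% were below 0. Without control replicate 2, 23 of the 96 were called lower and 10 higher, against 20.6% and 12.3% of all genes.

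Of 17 other disulfide isomerases and oxidases, 3 were called lower and 0 higher (4 higher at an unadjusted p under 0.05, 0 by voom). The 3 were Ero1l, the oxidase that recharges the isomerases (log2 fold change -1.50, adjusted p 0.038), and the membrane-bound thioredoxin proteins Tmx2 (-1.45, adjusted p 0.04) and Tmx4 (-1.20, adjusted p 0.039). Ero1l was at 11.95, 5.51 and 12.7 FPKM in the controls, against 2.94, 2.96 and 2.30 FPKM with IGF1. Tmx2 was at 98.9, 45.4 and 97.8 FPKM against 27.7, 26.4 and 27.4 FPKM. The median of this list was -0.21, near that of all genes. Its paralog Ero1lb, listed by RefSeq as Ero1b, had a log2 fold change of -0.01 (adjusted p 0.951).

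Among 14 other stress sensors, factors and processing proteases, 0 were called lower and 0 higher, and 1, Ppp1r15b, passed the adjusted p alone. At an unadjusted p under 0.05, 3 were lower and 2 higher, and voom called 1 higher and 0 lower. Ppp1r15b, a regulatory subunit of the phosphatase that acts on eIF2α, was at 14.0, 10.03 and 14.0 FPKM in the controls, against 6.14, 6.04 and 6.29 FPKM with IGF1 (log2 fold change -0.92, adjusted p 0.032). Atf4, the factor translated under PERK signaling, was at 75.8, 129 and 73.7 FPKM in the controls, against 163, 153 and 157 FPKM with IGF1 (log2 fold change 0.81, adjusted p 0.054). Trib3, a target of ATF4, was at 5.02, 3.42 and 5.32 FPKM against 2.28, 2.76 and 2.91 FPKM (log2 fold change -0.60, adjusted p 0.054). Atf4 and Trib3 did not pass, and their values lay on opposite sides of 0. Ddit3, in the same list, was at 6.71, 11.6 and 7.04 FPKM in the controls, against 14.0, 13.65 and 14.5 FPKM with IGF1. Its log2 fold change of 0.71 lay on the side of Atf4 and did not pass (adjusted p 0.056 in limma). Without control replicate 2, Atf4 was called higher at a log2 fold change of 1.07.

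Of the 13 co-chaperones and exchange factors of BiP, 0 were called in either direction, with 4 lower and 2 higher at an unadjusted p under 0.05 and 0 called by voom. The smallest adjusted p-values were 0.057 for Dnajc10 (log2 fold change -1.10) and Sil1 (-0.31) and 0.072 for Hspa13 (-0.64). The J protein and reductase Dnajc10 was at 34.3, 14.2 and 32.3 FPKM in the controls, against 11.2, 11.0 and 11.3 FPKM with IGF1. Sil1, the nucleotide exchange factor of BiP, was at 25.7, 25.9 and 25.7 FPKM against 21.3, 19.2 and 21.2 FPKM. Control replicate 2 was at the level of the other controls for Sil1 and much nearer to the IGF1 libraries for Dnajc10.

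In the glycoprotein folding cycle, which trims glucose and mannose from the glycans that Calr and Canx read, 0 of 8 genes were called in either direction. At an unadjusted p under 0.05, 4 were lower and 2 higher, and voom called 0. Mogs, glucosidase I, passed the adjusted p alone (log2 fold change -0.35, adjusted p 0.045), and Ganab, a subunit of glucosidase II, did not (-0.91, adjusted p 0.055), nor did the cargo receptor subunit Mcfd2 (-1.24, adjusted p 0.054). Of 22 genes of ER-associated degradation, which returns misfolded proteins to the proteasome, 0 were called in either direction, with 12 lower and 1 higher at an unadjusted p under 0.05 and 0 called by voom. Ufd1l (-0.68, adjusted p 0.029), Ube2g2 (-0.69, adjusted p 0.043) and Nploc4 (-0.44, adjusted p 0.046) passed the adjusted p with lower values and Aup1 (0.44, adjusted p 0.043) with higher ones. Ufd1l and Nploc4 encode the cofactors of p97 that pull substrates out of the membrane. Ufd1l was at 39.2, 37.0 and 38.0 FPKM in the controls, against 22.2, 23.3 and 24.5 FPKM with IGF1, with control replicate 2 at the level of the other controls.

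The translocon and signal peptidase list, 22 genes for the channel that lets new proteins into the ER and for its partners, had 1 gene called lower and 0 higher (4 higher at an unadjusted p under 0.05, 0 by voom). Ssr3, a subunit of the translocon-associated protein complex, was at 117, 65.0 and 116 FPKM in the controls, against 38.0, 40.2 and 37.5 FPKM with IGF1 (log2 fold change -1.29, adjusted p 0.036). Srprb, a subunit of the receptor for the signal recognition particle, passed the adjusted p with lower values (-0.60, adjusted p 0.029) and Sec62 with higher ones (0.39, adjusted p 0.041). Subunits of one complex differed in direction of their values. The channel subunit Sec61a1 was at 103, 51.2 and 106 FPKM in the controls, against 44.0, 44.0 and 42.9 FPKM with IGF1, while its small partner Sec61g was at 107, 464 and 98.7 FPKM against 619, 604 and 581 FPKM. These Sec61 genes, picked after their values were seen, did not pass (adjusted p 0.061 and 0.064), and without control replicate 2 they were called lower (-1.24) and higher (2.54), respectively.

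Transcript length ran with these differences across the other ER genes, and over the 10 sensors and chaperones the sign was opposite. Among the 96 genes, the 32 with the shortest annotated transcripts (723 to 2461 bases) had a median log2 fold change of 0.32, and 11 were below 0. The middle 32 (2513 to 3955 bases) had a median of -0.37 with 26 below 0, and the longest 32 (3967 to 9333 bases) a median of -0.36 with 24 below 0. Spearman's rho between length and log2 fold change was -0.374 over the 96 genes and -0.217 over the 10348 tested genes with a length. With GC content of the transcript it was 0.293 and 0.383. Over the 10 sensors and chaperones it was 0.248 with length and 0.00606 with GC content. These correlations are across genes of the same 6 libraries, which are not independent of each other. The 10 sensors and chaperones have transcripts of 2129 bases (Xbp1) to 7246 bases (Atf6), and the 2 with the longest, Ern1 and Atf6, were among the 4 with fold changes nearest to 0. With trends in length and GC content removed, the median of the 10 genes was -0.59, against -0.18 for all genes, and 9 of the 10 remained below 0.

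**Figure D5:**
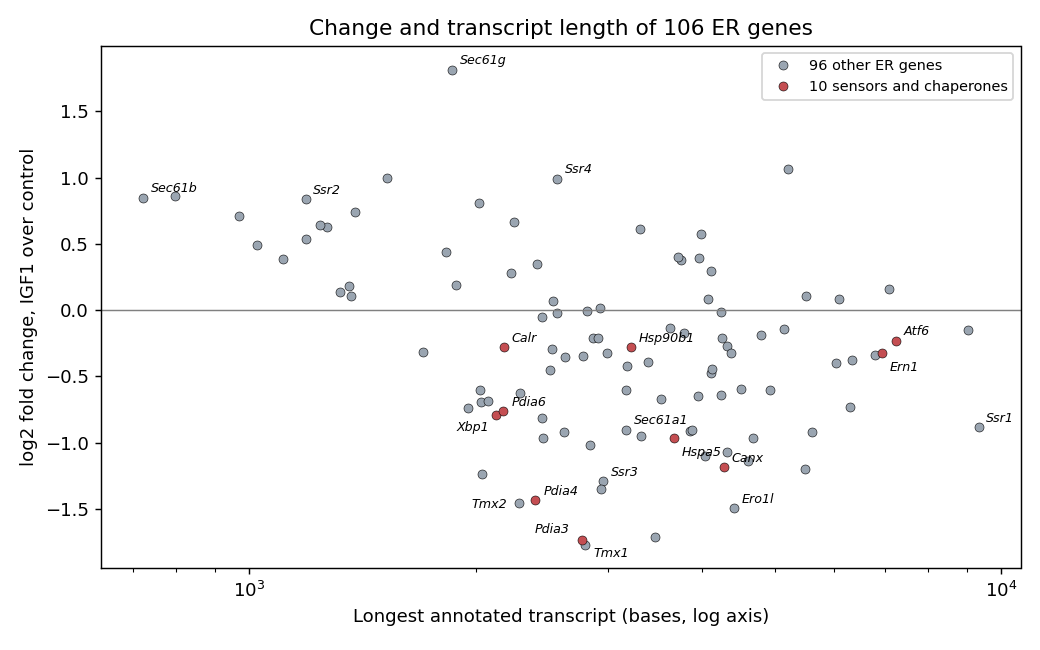
Log2 fold change of IGF1 over control with all 6 libraries against the longest annotated transcript of the gene in bases on a log axis, for the 10 sensors and chaperones (red) and 96 other ER genes (grey). Transcripts of Sec61b, Ssr2 and other genes at the left have values above 0, and Pdia3 lies among the lowest at a length of 2770 bases.

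Log2 fold changes of the 5 genes with an ERSE were -1.19 for Canx, -0.96 for Hspa5, -0.76 for Pdia6, -0.28 for Calr and, with 2 matches, -0.28 for Hsp90b1. Those of the 4 genes without a match in the window searched were -1.74 for Pdia3, -1.43 for Pdia4, -0.79 for Xbp1 and -0.33 for Ern1, so the 2 ranges overlapped. Outside the 10 genes, 30 genes hold an ERSE in the same window, of which 22 were in the files under their current or an older symbol and 9 were tested. Of these 9, 0 were called in either direction, also by voom, and 1, the mannosyltransferase Alg12, passed the adjusted p alone (log2 fold change -0.56, adjusted p 0.037). It was also the one with an unadjusted p under 0.05. The other 8 ranged from -0.30 for Xlr3b to 0.36 for Hnrnpa3, and included the ER genes Dnajc3 (-0.14), Creld2 (0.11), Syvn1 (0.08) and Derl3 (0.14). The median of the 9 was -0.01.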

How the data were processed

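The series holds 6 RNA-seq libraries of sorted mouse BM HSCs, 3 of control mice and 3 of mice given IGF1. Samples were grouped by their treatment label. Per the submitters' processing notes the tools were fastp, HISAT2 and StringTie and the build GRCm38 (mm10), while the methods of the study name fastp, RSEM and DESeq2. The annotation used is not given in the sources used here. The authors deposited 1 FPKM value per gene row and library, 21878 rows each, of which 4 share a symbol with another row. The unit was inferred from the values: whole multiples of 1 step per gene were found for 15640 of 15640 genes above 0 (tolerance 0.02 reads), which gave the read numbers and depths quoted. Intervals were not computed from them.

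FPKM values were tested with limma 3.58.1 in R 4.3.3 on log2(FPKM + 1), with a variance trend, on genes that reached 1 FPKM in 3 or more libraries. Genes were called where the fold change passed 2 and p, adjusted by Benjamini-Hochberg over all 10449 genes, was under 0.05. Exact permutation tests over libraries were 2-sided. In simulated data (5 draws of 10449 genes), 100% of genes at or above 20 FPKM with a 2.5-fold change were called at a coefficient of variation of 0.05 and 86.4% at 0.2, and over genes at all levels 77.6% and 68.8%. The controls varied more than this for genes such as Pdia3 (mean 358 FPKM, SD 179) and Pdia4 (57.8, SD 29.2). They did not for Hsp90b1 (166, SD 10.1). The simulated rates therefore do not give the power for genes that vary more. Gene length, GC content and coordinates came from GENCODE transcripts on GRCm38, for 99.03% of tested genes, and promoters from RefSeq (GRCm38.p6).

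The 10 genes and the ER gene and marker lists were chosen with earlier results of these data known. All 10 were named. From each list the genes called, or otherwise up to 3 with the smallest adjusted p, were named. Other genes of the lists that are named were chosen after their values were seen. Alternatives were TMM, quantile and 75th percentile scaling, other filters and pseudocounts, no variance trend, library weights, removal of length and GC trends, voom on recovered reads, a replicate block and leaving out each library. Scaling to a common sum, and scaling, normalization or trend removal combined with leaving out control replicate 2, were chosen after seeing the data.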

Additional observations from a re-analysis of the deposited data

How the results depend on the processing

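Of the 10 genes, 2 were called lower with the processing described (4.63% of all genes). The count was 1 with TMM scaling (2.7% of all genes called lower), quantile normalization (3.05%), 75th percentile scaling (2.48%) and no filter (1.69%). It was also 1 with length and GC trends removed (2.8%) and voom (4.17%). The count was 5 with library weights, which gave control replicate 2 a weight of 0.0137 against 1.90 to 3.64 for the others. It was 0 with values scaled to a common sum (1.88%) and 0 to 5 when 1 library was left out (0% to 20.6%). With control replicate 2 left out the count was 4 with TMM or 75th percentile scaling (14% and 11.8% of all genes called lower) and 7 with quantile normalization (13.7%). It was then 3 with length and GC trends removed (14.6%), where Canx (-0.82) and Hspa5 (-0.76) missed the fold of 2. With library weights 20.7% of all genes were called lower. Genes past the adjusted p alone with lower values, 3 as described (14.1% of all genes), were 1 with quantile normalization (11.8%) or no filter (6.53%). They were 10 with library weights (54.3%) and 0 to 10 when 1 library was left out (0% to 53.6%). Where 0 were called, genes lower at an unadjusted p under 0.05 were 8 of the 10 with values scaled to a common sum (46.5% of all genes), 6 with the replicate block (29.5%) and 3 or 4 with 1 library left out (19.3% to 20.8%). The cause was not tested.

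Replicate numbers did not pair the libraries (correlations of deviations -0.0572, -0.0503 and 0.00567 for numbers 1, 2 and 3). With the replicate block 0 of the 10 genes were called and 0 passed the adjusted p, and calls fell to 0 for the other isomerases and oxidases and for the translocon list. Over all genes tested 0 were called with the block.

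Hsp90b1 reversed to 0.28 with length and GC trends removed and, without control replicate 2, to 0.0181 with 75th percentile scaling and 0.41 with those trends removed. The other 9 genes stayed below 0 in every alternative run in which they were tested. The median of all genes was -0.0160 with TMM scaling, -0.0205 with quantile normalization, 0.0400 with 75th percentile scaling, -0.0382 with no filter, -0.0156 with voom and -0.52 with values scaled to a common sum.

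With library weights, genes called lower were 2 of the other sensors and factors, 2 of the co-chaperones, 7 of the other isomerases and oxidases, 3 of the glycoprotein cycle, 4 of ER-associated degradation and 5 of the translocon list, and genes called higher were 1, 1, 2 and 6 of the sensors, co-chaperones, isomerases and translocon lists. Leaving out 1 library gave ranges of 0 to 2, 0 to 2, 0 to 7, 0 to 3, 0 to 4 and 0 to 5 called lower, in the same order, and 0 to 1, 0 to 1, 0 to 2 and 0 to 6 called higher, with each upper end from leaving out control replicate 2. Among sensors and factors 1 was called lower with a pseudocount of 0.1 and 1 higher with voom, among isomerases and oxidases 1 was called lower with a pseudocount of 5, and in the translocon list 0 with length and GC trends removed. Ern1, at 78 to 207 reads per library, had the fewest reads of the 10 genes.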
